A study of Mus musculus with 9 samples.

Results

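The genes described here encode the receptors and bridging factors by which phagocytes take up dying cells, 10 genes in all, measured by RNA sequencing in mouse lymph nodes. They were taken by gene symbol from a table of 37801 usable gene entries, and each of the 10 had 1 entry. Apoptotic cells expose phosphatidylserine on their outer membrane. The receptor tyrosine kinases Tyro3, Axl and Mertk (the TAM receptors) do not bind this lipid themselves and reach it through the bridging proteins Gas6 and Pros1 (protein S), of which Gas6 binds all TAM receptors and Pros1 binds Tyro3 and Mertk. Mfge8 bridges the same lipid to integrins that contain the alpha v chain Itgav, the stabilins Stab1 and Stab2 bind it directly, and the large endocytic receptor Lrp1 takes part in uptake of cells tagged with calreticulin. In lymph nodes these genes are known from macrophages, from the endothelium of the sinuses and, for Mfge8, from follicular dendritic cells.

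The 9 libraries formed 3 groups of 3. WT libraries were labelled wild type for MHCII and for NRAS on the FVB/NJ strain, and the labels describe the controls as albino littermates without the transgene. Tyr-NrasQ61K libraries were labelled wild type for MHCII with NRAS61K on a cross to FVB/NJ, and their titles call them Cre negative. The tyrosinase promoter drives this oncogene in melanocytes. MHCII-KO libraries were labelled NRAS61K and MHCII-KO on the same cross, and their titles call them Cre positive, but the labels state neither the allele that was deleted nor the cells in which Cre acted. Ages were not given. The albino coat is shared: the labels describe the mice that carry the oncogene as albino too. The labels do not say whether libraries came from separate animals, so every p-value measures the spread between these samples.

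By the labels the source was nevus melanocytes, whereas the study describes RNA from lymph nodes. The FPKM (fragments mapped, scaled to the length of the transcript and to the total of the library) of 5 B cell markers added up to 555 to 2544 per library, and 6 T cell markers to 124 to 313, against 3.89 to 17.0 for 7 melanocyte markers. The melanocyte sum was 3.89 to 5.67 in WT nodes, 12.5 to 17.0 in those of Tyr-NrasQ61K and 6.79 to 11.7 in those of MHCII-KO. In WT nodes most of it came from Mitf and Tyr. Mitf had means of 2.86, 3.61 and 3.22 FPKM in the same order, and Tyr 1.41, 1.54 and 1.17. Dct had means of 0.0276, 4.25 and 2.06 FPKM. The MHC class II chain gene H2-Ab1 was at 101 to 183, 149 to 276 and 108 to 271 FPKM in the same order, H2-Aa at 667 to 1091, 276 to 802 and 362 to 634 FPKM, and H2-Eb1 at 394 to 659, 355 to 578 and 360 to 444 FPKM. For H2-Aa the MHCII-KO libraries lay below all WT libraries, and for each of the 3 genes they overlapped the Tyr-NrasQ61K libraries. Nras was at 10.3 to 14.7, 5.55 to 14.4 and 7.48 to 11.1 FPKM. On the first principal component of all genes tested (32.1% of the variance), replicate 2 of Tyr-NrasQ61K and of MHCII-KO stood apart at 102 and 78.6, and the other libraries lay from -74.1 to 21.8. On the second (14.6%), Tyr-NrasQ61K replicate 3 stood apart at -100, and the other libraries lay from -12.9 to 35. In bulk tissue, fewer cells of a type and less RNA per cell cannot be told apart.

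No clearance gene passed the test in any comparison: of the 10, 9 were tested and Tyro3 was too low to test. The uptake receptor genes Lrp1 and Mertk lay higher on average in both groups with NrasQ61K than in WT nodes, at 1.90 and 1.66 times the WT mean in Tyr-NrasQ61K nodes and 1.89 and 1.58 times in MHCII-KO nodes. The bridging factor gene Pros1 lay at 0.411 and 0.405 times the WT mean, and the sinus endothelial receptor gene Stab2 at 0.614 and 0.544 times. Axl, Gas6 and Stab1 overlapped between WT and each NrasQ61K group. Between the NrasQ61K groups themselves, Itgav was the only clearance gene whose libraries did not overlap (adjusted p = 0.99994 from limma), beside 3.80% of all genes tested. The comparisons of either NrasQ61K group with WT share the 3 WT libraries and are not independent of each other.

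**Figure D1:**
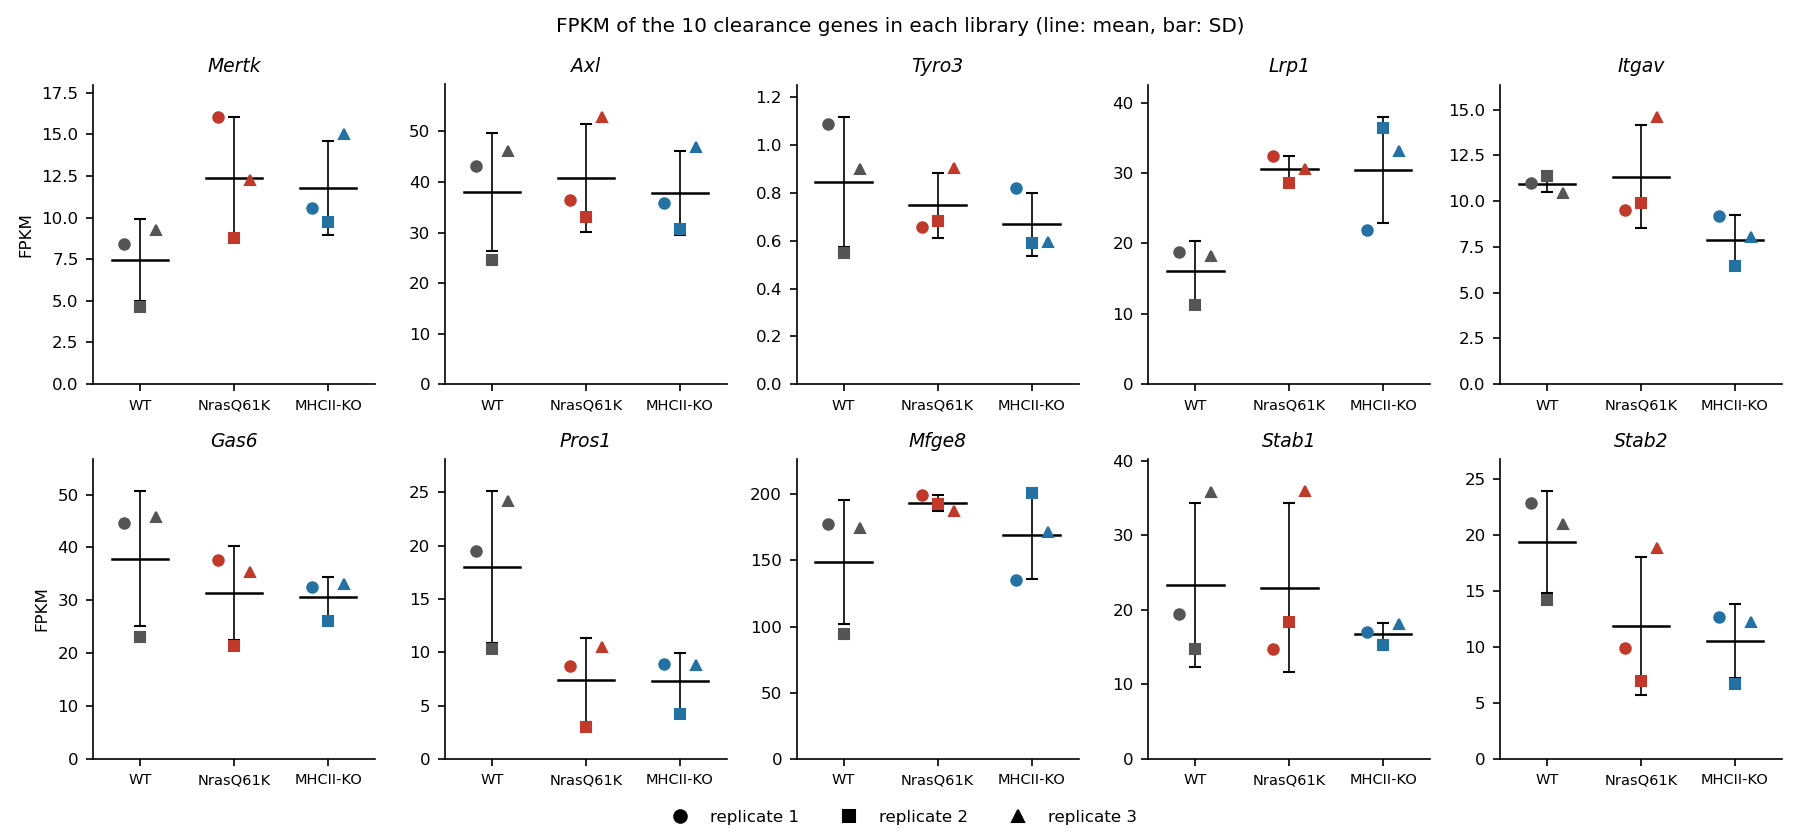
FPKM (vertical axis, linear, from 0) of each of the 10 clearance genes in the 3 WT (grey), 3 Tyr-NrasQ61K (red, axis label NrasQ61K) and 3 MHCII-KO (blue) libraries, where marker shapes give the replicate number, horizontal lines the mean and bars the SD. All 6 NrasQ61K libraries lie above the 3 WT libraries for Lrp1, the NrasQ61K means lie below the WT mean for Pros1 and Stab2, and WT replicate 2 is the lowest WT library for every gene but Itgav.

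The 250 bases before the RefSeq start site of each gene were read from the RefSeq promoter table (build GRCm38.p6, the coordinates of mm10), which held all 10 genes. Those of the pair of genes that lay lower in the NrasQ61K groups and of the pair that lay higher are shown, 5′ to 3′ on the strand of the gene, so that the pairs can be compared. The last 83 bases of the Stab2 window (chr10:87007943-87008192) lie inside the gene as GENCODE places it, so only the 167 bases before both starts are shown for Stab2, and counts are over the window of 250 bases. None of the windows of Pros1, Mertk and Lrp1 reaches into the GENCODE gene. Capitals mark matches on either strand to the GC box (GGGCGG), the CCAAT box (CCAAT), the TATA box (TATAAA), the E-box (CACGTG) and the core of PU.1-type ETS sites (GAGGAA).
Pros1 (chr16:62854057-62854306, plus strand): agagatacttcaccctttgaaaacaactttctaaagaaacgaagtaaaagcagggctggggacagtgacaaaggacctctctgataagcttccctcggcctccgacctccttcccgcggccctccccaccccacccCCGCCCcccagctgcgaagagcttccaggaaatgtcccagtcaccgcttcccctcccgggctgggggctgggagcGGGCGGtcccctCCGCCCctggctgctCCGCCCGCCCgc
Stab2 (chr10:87008026-87008192, minus strand): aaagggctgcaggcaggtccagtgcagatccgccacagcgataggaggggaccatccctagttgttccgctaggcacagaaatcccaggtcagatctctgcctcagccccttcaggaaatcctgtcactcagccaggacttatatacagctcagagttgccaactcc
Mertk (chr2:128698665-128698914, plus strand): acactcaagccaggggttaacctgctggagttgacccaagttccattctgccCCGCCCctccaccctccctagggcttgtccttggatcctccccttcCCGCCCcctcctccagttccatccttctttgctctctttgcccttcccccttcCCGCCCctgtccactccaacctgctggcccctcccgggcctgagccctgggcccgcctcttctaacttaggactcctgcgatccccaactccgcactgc
Lrp1 (chr10:127621149-127621398, minus strand): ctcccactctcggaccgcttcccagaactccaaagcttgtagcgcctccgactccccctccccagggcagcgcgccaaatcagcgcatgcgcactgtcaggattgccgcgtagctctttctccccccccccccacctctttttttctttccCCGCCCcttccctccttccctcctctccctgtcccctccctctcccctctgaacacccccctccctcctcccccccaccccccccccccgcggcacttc
The window of Pros1 held 5 GC boxes, of which the last 2 overlap, that of Mertk held 3 and that of Lrp1 held 1, while that of Stab2 held none of the 5 motifs. Among the other clearance genes, the windows of Gas6 and Mfge8 held 4 GC boxes each and that of Axl 1. The windows of Stab1 and Itgav held 0, and that of Tyro3, which lies inside the GENCODE gene, held 3. The number of GC boxes thus did not follow the direction of the differences. Of all 32851 promoters of this length, 32.7% held a GC box, 33.8% a CCAAT box, 12.4% a TATA box, 6.02% an E-box and 23.3% the ETS core. The windows of Pros1, Mertk and Lrp1 were 64.4%, 63.6% and 67.2% G and C with 15, 7 and 13 CpG, whereas that of Stab2 was 53.2% with 3 CpG, near the median of 52.4% over all promoters. These matches are letters in a window and show no binding.

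Among the TAM receptors, Axl had the highest level in every library, Mertk the next and Tyro3 the lowest. Mertk (ENSMUSG00000014361, chromosome 2 of mm10 from 128698956 to 128802894, plus strand) is the TAM receptor that macrophages use most for uptake of dying cells. It was at 8.43, 4.63 and 9.26 FPKM in WT libraries 1, 2 and 3. It was at 16.1, 8.79 and 12.3 FPKM in Tyr-NrasQ61K nodes and at 10.6, 9.75 and 15.0 FPKM in the MHCII-KO libraries. All MHCII-KO libraries lay above all WT libraries, and of the Tyr-NrasQ61K libraries only replicate 2 fell below the highest WT value. The log2 difference of FPKM + 1 was 0.67 (standard error 0.31, adjusted p = 0.335 from limma) for Tyr-NrasQ61K and 0.62 (standard error 0.31, adjusted p = 0.341 from limma) for MHCII-KO against WT, that is, 0.79 and 0.84 above the median of all genes tested. Without WT replicate 2, the lowest library, these log2 differences were 0.41 and 0.35.

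Axl (ENSMUSG00000002602, chromosome 7 from 25757273 to 25788705, minus strand), which of the TAM ligands binds Gas6, was at 43.1, 24.6 and 46.2 FPKM in WT libraries. It was at 36.4, 33.1 and 52.9 FPKM in Tyr-NrasQ61K and at 35.9, 30.7 and 46.9 FPKM in MHCII-KO libraries. The 3 groups covered nearly the same range, and the log2 differences against WT were 0.12 (95% interval -0.62 to 0.87) and 0.02 (-0.72 to 0.77), with adjusted p of 0.849 and 0.971 from limma. These intervals hold changes in either direction that the 3 libraries per group could not resolve, and the sign turned without WT replicate 2, to -0.15 and -0.25. Tyro3 (ENSMUSG00000027298, chromosome 2 from 119797733 to 119818104, plus strand), best known from neurons and dendritic cells, was at 0.549 to 1.09 FPKM in WT nodes, 0.656 to 0.905 in those of Tyr-NrasQ61K and 0.591 to 0.822 in those of MHCII-KO. It reached 1 FPKM in 1 library and so failed the filter of at least 1 FPKM in 3 libraries. In the fit without that filter its log2 difference from WT was -0.07 for Tyr-NrasQ61K and -0.14 for MHCII-KO (adjusted p = 0.859 and 0.673 from limma).

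Set against each other within a library, the TAM receptors had a more even make-up in WT nodes than their levels had. Mertk made up 16.0%, 15.6% and 16.4% of the summed FPKM of Mertk, Axl and Tyro3 in the WT libraries. It made up 30.2%, 20.7% and 18.6% in the Tyr-NrasQ61K libraries and 22.4%, 23.7% and 24.0% in the MHCII-KO libraries. All 6 NrasQ61K libraries thus lay above the 3 WT libraries. With so little Tyro3, this share nearly restates the ratio of Axl to Mertk. Ratios with Mertk did not overlap for 50% of all other genes, so the shift is not particular to the TAM receptors. Axl held 81.9% to 82.6% of the sum in WT, 68.5% to 80.1% in the Tyr-NrasQ61K group and 74.8% to 75.9% in that of MHCII-KO, and Tyro3 at most 2.07% in any library.

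Lrp1 (ENSMUSG00000040249, chromosome 10 from 127538161 to 127621148, minus strand), a scavenger receptor with many ligands, was at 18.8, 11.2 and 18.2 FPKM in WT libraries. It was at 32.4, 28.6 and 30.7 FPKM in Tyr-NrasQ61K nodes and at 21.9, 36.4 and 33.1 FPKM in the MHCII-KO libraries. Every NrasQ61K library lay above every WT library, with MHCII-KO replicate 1 the nearest to the WT range. The log2 difference was 0.91 (standard error 0.28, adjusted p = 0.255 from limma) for Tyr-NrasQ61K and 0.88 (standard error 0.28, adjusted p = 0.327 from limma) for MHCII-KO against WT, which lay 1.03 and 1.10 above the median of all genes. Pooled over both NrasQ61K groups it was 0.90 (standard error 0.24, adjusted p = 0.162 from limma), the smallest adjusted p of the 9 tested clearance genes in any comparison. Without WT replicate 2 the log2 differences were 0.69 and 0.66, and without Tyr-NrasQ61K replicate 2 and MHCII-KO replicate 2 together 0.96 and 0.74.

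Itgav (ENSMUSG00000027087, chromosome 2 from 83724397 to 83806916, plus strand) was the steadiest gene in WT nodes, at 11.0, 11.4 and 10.5 FPKM. It was at 9.51, 9.90 and 14.6 FPKM in Tyr-NrasQ61K and at 9.18, 6.44 and 8.02 FPKM in MHCII-KO libraries. All MHCII-KO libraries lay below all libraries of both other groups, while the Tyr-NrasQ61K libraries lay on both sides of WT. The log2 difference was 0.02 for Tyr-NrasQ61K against WT (adjusted p = 0.958 from limma), -0.44 for MHCII-KO against WT (adjusted p = 0.340 from limma) and -0.46 for MHCII-KO against Tyr-NrasQ61K (standard error 0.22, adjusted p = 0.99994 from limma). Without Tyr-NrasQ61K replicate 3 the last was -0.28, and median-ratio scaling brought the difference from WT to -0.20. Its beta partners, named here after their values were seen, did not pass the test either. Itgb5, which with Itgav forms a receptor for Mfge8, was at 3.71 to 7.23 FPKM in WT nodes, 8.91 to 18.1 in those of Tyr-NrasQ61K and 7.25 to 10.7 in those of MHCII-KO (log2 difference 1.08 and 0.66 against WT, adjusted p = 0.243 and 0.335 from limma). Itgb8 was at 1.11 to 1.34, 0.402 to 0.610 and 0.280 to 0.830 FPKM in the same order (log2 difference -0.60 and -0.53, adjusted p = 0.253 and 0.329 from limma), and Itgb3 at 3.11 to 4.07, 3.97 to 4.44 and 3.28 to 3.82 FPKM (0.17 and -0.05, adjusted p = 0.557 and 0.873 from limma). Itgb1, which pairs with many alpha chains, was at 34.6 to 64.5, 18.4 to 40.2 and 21.2 to 35.8 FPKM (-0.78 and -0.83, adjusted p = 0.347 and 0.334 from limma).

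The bridging factors differed among themselves. Pros1 (ENSMUSG00000022912, chromosome 16 from 62854307 to 62929346, plus strand), a vitamin K-dependent plasma protein that is also an anticoagulant cofactor, was at 19.5, 10.3 and 24.2 FPKM in WT libraries. It was at 8.71, 2.94 and 10.5 FPKM in Tyr-NrasQ61K and at 8.85, 4.21 and 8.81 FPKM in MHCII-KO libraries. The MHCII-KO libraries lay below all WT libraries, and Tyr-NrasQ61K replicate 3 lay just above WT replicate 2, the lowest WT library. The log2 difference was -1.24 (standard error 0.48, 95% interval -2.35 to -0.14, adjusted p = 0.316 from limma) for Tyr-NrasQ61K and -1.18 (standard error 0.48, 95% interval -2.29 to -0.07, adjusted p = 0.329 from limma) for MHCII-KO against WT. Tyr-NrasQ61K replicate 2 carried part of the first: without it the log2 difference was -0.77. The level of Pros1 followed the first principal component, on which that library stood farthest out, with Pearson r = -0.977 over the 9 libraries, and the part of that component in the difference was not tested.

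Gas6 (ENSMUSG00000031451, chromosome 8 from 13465374 to 13494490, minus strand), the other TAM ligand, was at 44.6, 23.1 and 45.8 FPKM in WT libraries. It was at 37.7, 21.3 and 35.4 FPKM in Tyr-NrasQ61K and at 32.5, 26.1 and 33.1 FPKM in MHCII-KO libraries. In each group replicate 2 was the lowest library and the groups overlapped. The log2 differences of -0.24 (95% interval -1.01 to 0.54) and -0.25 (-1.02 to 0.53) against WT had adjusted p of 0.709 and 0.691 from limma. Median-ratio scaling turned the MHCII-KO value to 0.01.

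Mfge8 (ENSMUSG00000030605, chromosome 7 from 79133768 to 79149060, minus strand), a secreted glycoprotein, had the highest FPKM of the 10 genes in every library. It was at 178, 94.5 and 175 FPKM in WT libraries. It was at 200, 193 and 187 FPKM in Tyr-NrasQ61K and at 135, 201 and 172 FPKM in MHCII-KO libraries. The Tyr-NrasQ61K libraries lay above WT replicates 1 and 3 by a small margin and the low value of WT replicate 2 made up most of the difference: the log2 difference of 0.43 (standard error 0.33, adjusted p = 0.494 from limma) was 0.13 without it, and that of 0.22 for MHCII-KO against WT (adjusted p = 0.720 from limma) turned to -0.08. The summed FPKM of 6 markers of follicular dendritic cells was 324 to 618 in WT nodes, 237 to 471 in those of Tyr-NrasQ61K and 257 to 353 in those of MHCII-KO. Clu was the highest of them, with a WT mean of 229 FPKM, and their part in the level of Mfge8 was not tested.

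Of the stabilins, which are large scavenger receptors, Stab2 (ENSMUSG00000035459, chromosome 10 from 86841198 to 87008025, minus strand), a receptor of sinus endothelium that also clears hyaluronan, was at 22.8, 14.2 and 21.0 FPKM in WT libraries. It was at 9.86, 6.95 and 18.8 FPKM in Tyr-NrasQ61K and at 12.6, 6.67 and 12.2 FPKM in MHCII-KO libraries. All MHCII-KO libraries lay below all WT libraries, and Tyr-NrasQ61K replicate 3 lay within the WT range. The log2 difference was -0.74 (standard error 0.39, adjusted p = 0.354 from limma) for Tyr-NrasQ61K and -0.84 (standard error 0.39, adjusted p = 0.330 from limma) for MHCII-KO against WT, or -0.62 relative to the median of all genes in both. Without Tyr-NrasQ61K replicate 2 the first was -0.45. The 9 genes listed as markers of lymphatic and sinus endothelium summed to 103 to 243 FPKM in WT nodes, 70.7 to 118 in those of Tyr-NrasQ61K and 81.8 to 107 in those of MHCII-KO. Ccl21a made up most of this sum, with means of 129 of 186, 63.6 of 98.5 and 63.8 of 98.1 FPKM in the same order. The sum therefore mostly follows 1 gene, and the part of these markers in the level of Stab2 was not tested. Of these 9 markers 0 passed in limma, with 2 lower at an unadjusted p under 0.05 in each comparison with WT (beside 1398 and 1900 of the 16587 genes tested), and 3 had a log2 difference above 0 for Tyr-NrasQ61K and 1 for MHCII-KO. Lyve1, a hyaluronan receptor of the same endothelium, was at 12.8 to 36.0, 5.69 to 19.0 and 9.17 to 17.6 FPKM in WT, Tyr-NrasQ61K and MHCII-KO libraries, while Pdpn and Reln had means of 3.28 and 2.42 FPKM in WT, 3.46 and 3.14 in Tyr-NrasQ61K and 3.10 and 2.69 in MHCII-KO nodes.

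Stab1 (ENSMUSG00000042286, chromosome 14 from 31139013 to 31168641, minus strand), which macrophages express as well, was at 19.4, 14.7 and 35.8 FPKM in WT libraries. It was at 14.7, 18.4 and 35.9 FPKM in Tyr-NrasQ61K and at 17.0, 15.3 and 18.1 FPKM in MHCII-KO libraries. The highest value came from replicate 3 in every group, and the log2 differences of -0.03 and -0.36 against WT (adjusted p = 0.977 and 0.616 from limma) had intervals from -0.93 to 0.88 and from -1.27 to 0.55. That of Tyr-NrasQ61K turned to 0.32 without WT replicate 3 and to 0.13 with median-ratio scaling.

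**Figure D2:**
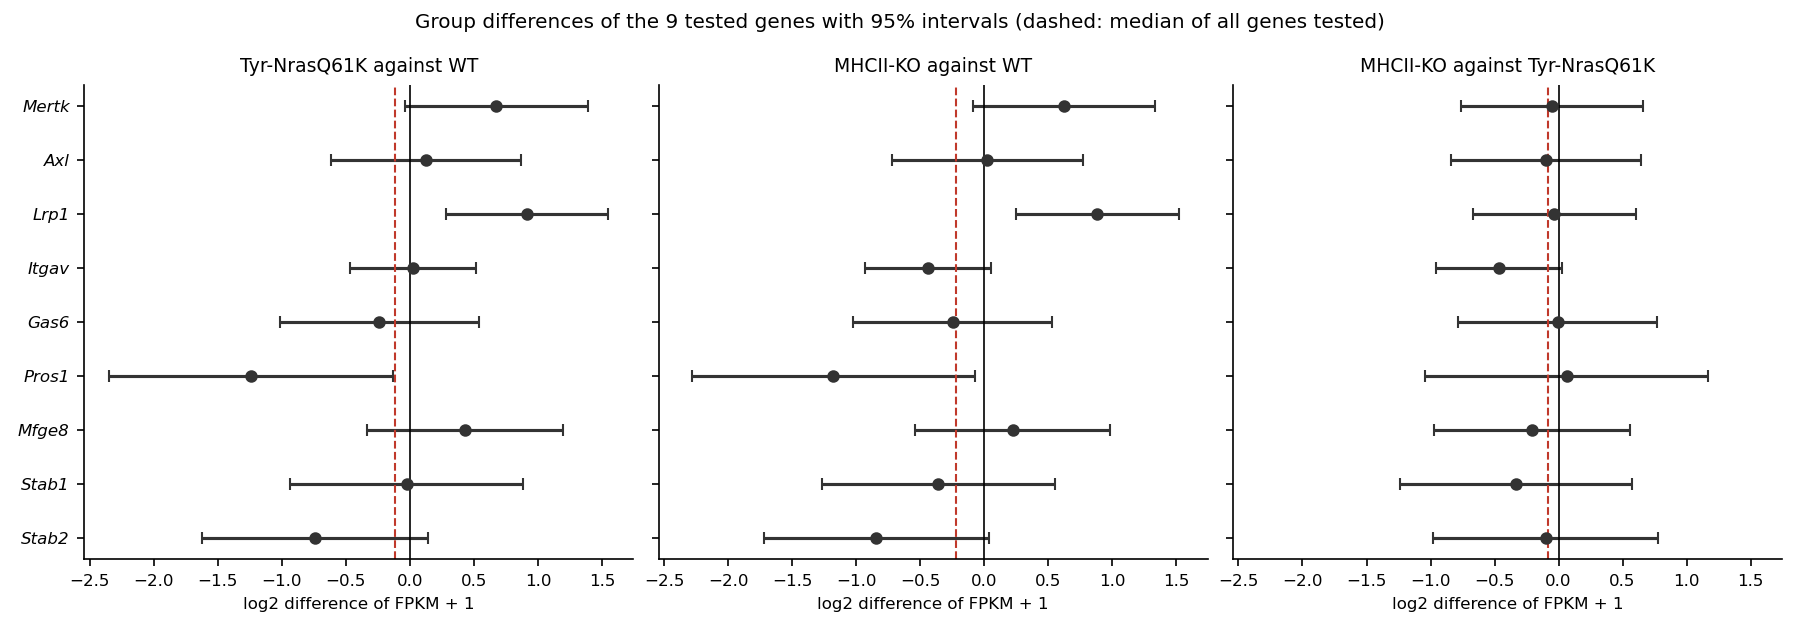
Log2 differences of FPKM + 1 (horizontal axis) of the 9 clearance genes that passed the filter, one panel per comparison; points are the limma estimates, bars 95% intervals, and the dashed line the median difference of all genes tested. The intervals exclude 0 for Lrp1 and Pros1 in both comparisons with WT and for no gene between the NrasQ61K groups, and none of these differences passed adjustment over all genes.

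Counted over all 9 tested genes, 0 passed at an adjusted p of 0.05 (limma with Benjamini-Hochberg) in Tyr-NrasQ61K against WT, where 0.235% of the 16587 genes tested passed. The same count of 0 stood beside 0.145% in MHCII-KO against WT, 0.0482% in MHCII-KO against Tyr-NrasQ61K and 0.398% in both NrasQ61K groups against WT. At an unadjusted p under 0.05 in limma, Lrp1 was higher and Pros1 lower in Tyr-NrasQ61K against WT, beside 15.2% of all genes, and in MHCII-KO against WT, beside 15.0%. With both NrasQ61K groups pooled, Lrp1 and Mertk were higher and Pros1 and Stab2 lower, beside 21.7% of all genes, and between the NrasQ61K groups the count was 0 beside 1.52%. The libraries did not overlap for Lrp1 and Mfge8 (both higher) in Tyr-NrasQ61K against WT, where this held for 18.7% of all genes. They did not overlap for Mertk and Lrp1 (higher) and Pros1, Stab2 and Itgav (lower) in MHCII-KO against WT, where it held for 31.3%. For both NrasQ61K groups against WT it held for Lrp1 alone beside 13.0%, and between the NrasQ61K groups for Itgav alone beside 3.80%. The median log2 difference of the 9 genes was 0.02, -0.25, -0.10 and -0.19 in the comparisons as first listed, and that of all genes tested -0.12, -0.22, -0.08 and -0.16. Median-ratio scaling, which aligns the libraries on the median gene, brought the median of all genes to between -0.01 and 0.01.

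When libraries were weighted by how closely they followed their group, the calls changed. Mertk, Pros1, Stab2 and Lrp1 then passed in Tyr-NrasQ61K against WT (log2 difference 0.79, -1.20, -1.0 and 0.80, adjusted p from 0.0148 to 0.0239 from limma). The same 4 genes and Itgav passed in MHCII-KO against WT (0.64, -1.20, -0.80, 0.77 and -0.37, adjusted p from 0.00633 to 0.0290 from limma). Under these weights 5076 and 7407 of all genes passed in the same comparisons, against 39 and 24 without them, so that the members' calls stood among many others. The weights gave WT replicate 2 a weight of 0.319 and replicates 2 and 3 of Tyr-NrasQ61K weights of 0.197 and 0.295, and replicate 3 of MHCII-KO one of 5.22.

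Ratios between genes of the same library do not depend on how that library was scaled. They were examined for all 36 pairs of the 9 genes after the levels had been seen, and are given with no test. In WT nodes the ratio of Axl to Mertk was 5.11, 5.30 and 4.99, also in replicate 2, where both were low. It was 2.27, 3.76 and 4.31 in the Tyr-NrasQ61K and 3.39, 3.15 and 3.12 in the MHCII-KO libraries. All 6 of these lay below the lowest WT ratio, which is nearly the same observation as the share of Mertk among the TAM receptors. Ratios with Mertk did not overlap for 50% of all other genes.

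The ligand Gas6 stood in a like relation to Mertk. The ratio of Gas6 to Mertk was 5.29, 4.99 and 4.95 in WT, 2.34, 2.42 and 2.89 in Tyr-NrasQ61K and 3.07, 2.68 and 2.20 in MHCII-KO libraries. The ratio of Gas6 to Pros1, the pair of TAM ligands, lay the other way, from 2.29, 2.25 and 1.89 in WT to 4.33, 7.23 and 3.36 in Tyr-NrasQ61K and 3.67, 6.20 and 3.75 in MHCII-KO libraries. This ratio thus lay higher in all 6 NrasQ61K than in all 3 WT libraries, with both replicates 2 the farthest from WT. Ratios with Pros1 did not overlap for 48.1% of all other genes, so this is not particular to the pair of ligands. Pros1 also followed the first principal component (r = -0.977), on which both replicates 2 stood apart.

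The widest shifts joined a gene that lay lower with one that lay higher. The ratio of Pros1 to Lrp1 was 1.04, 0.915 and 1.33 in WT, 0.269, 0.103 and 0.344 in Tyr-NrasQ61K and 0.404, 0.116 and 0.266 in MHCII-KO libraries. The ratio of Stab2 to Lrp1 was 1.21, 1.26 and 1.15 in WT, 0.304, 0.243 and 0.613 in Tyr-NrasQ61K and 0.576, 0.183 and 0.370 in MHCII-KO libraries. In both, every NrasQ61K library lay below every WT library, while ratios with Lrp1 did not overlap for 63.1% of all other genes. Lrp1 to Mertk, by contrast, was 2.23, 2.42 and 1.97 in WT and overlapped in both other groups, from 2.01 to 3.25 and from 2.07 to 3.73.

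Of the 36 pairs, 17 (47.2%) did not overlap between the 6 NrasQ61K and the 3 WT libraries, where 18.5% of all pairs of tested genes above 0 in every library did not. Pairs share genes, and 16 of the 17 held Mertk, Lrp1, Pros1 or Stab2, which 26 of the 36 hold. Ratios with Lrp1, Mertk or Pros1 also did not overlap for 63.1%, 50.0% and 48.1% of all other genes, those with Mfge8, Stab2 or Axl for 27.3%, 25.5% and 25.1%, and those with Gas6, Itgav or Stab1 for 13.7%, 10.1% and 4.25%. Of its 8 pairs with clearance genes, Lrp1 and Pros1 did not overlap in 6 each, Mertk, Axl, Gas6, Mfge8 and Stab2 in 4 each, and Stab1 and Itgav in 1 each. Between the NrasQ61K groups, 1 of 36 pairs did not overlap, Axl to Itgav.

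**Figure D3:**
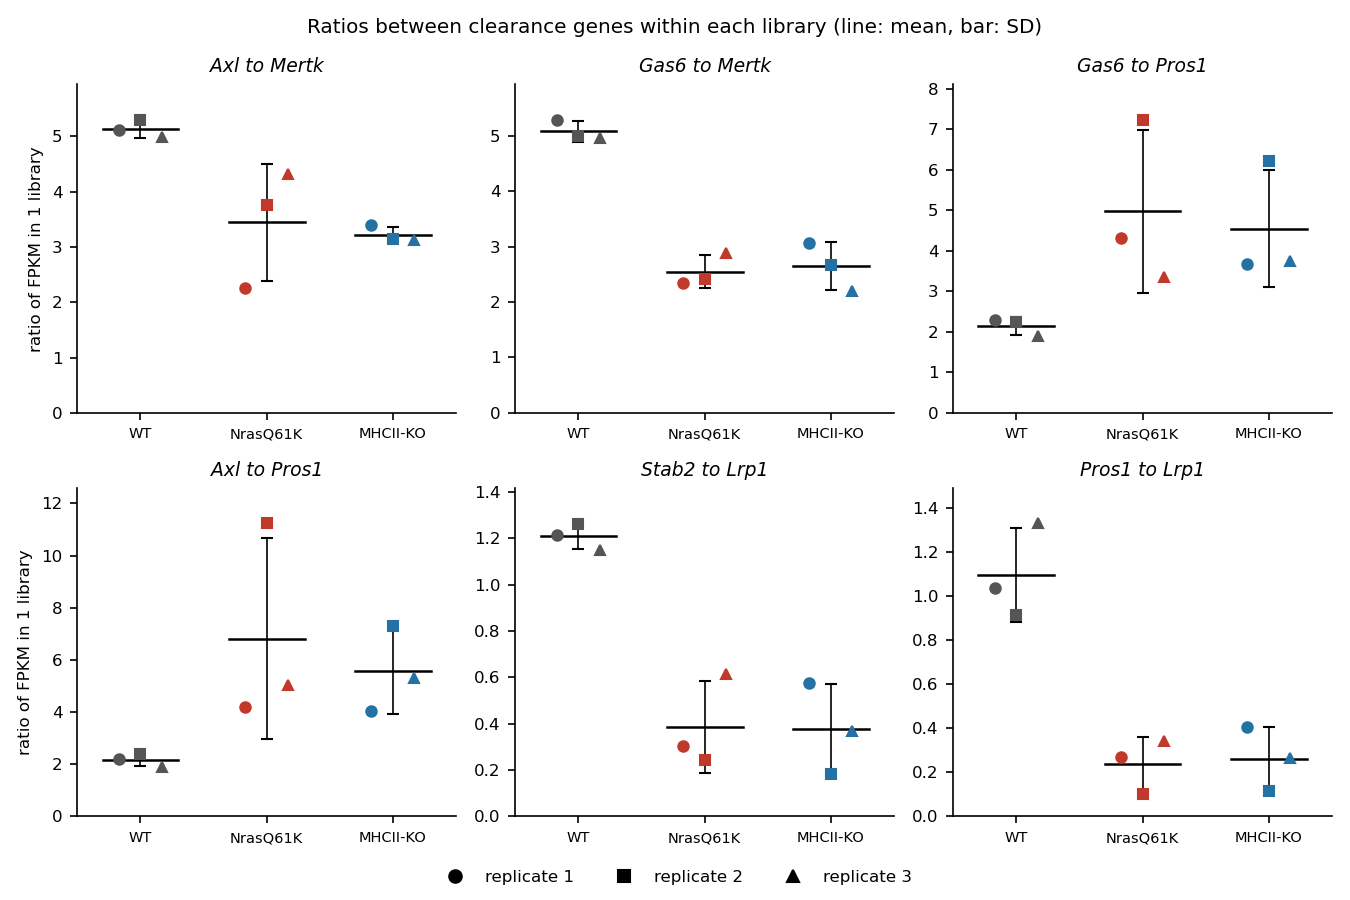
Ratio of the FPKM of 2 clearance genes within a library (vertical axis, linear, from 0) for 6 pairs chosen after their values were seen, in WT (grey), Tyr-NrasQ61K (red, axis label NrasQ61K) and MHCII-KO (blue) libraries; shapes give the replicate number, lines the mean and bars the SD. For each pair the 6 NrasQ61K libraries lie on one side of the 3 WT libraries, above them for Gas6 to Pros1 and Axl to Pros1 and below them for the other 4. Of all pairs of tested genes above 0 in every library, 18.5% did not overlap.

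How the genes varied together over the 9 libraries is given as a description, since the libraries share their group and their scaling. The log2(FPKM + 1) of Pros1 and Stab2 had Pearson r = 0.934, that of Pros1 and Gas6 0.835, and that of Lrp1 with Mfge8 and with Mertk 0.822 and 0.820. Axl stood between these, with r = 0.734 to Gas6, 0.747 to Stab1 and 0.628 to Mertk, and Gas6 and Mertk had r = 0.415. Lrp1 had r = -0.530 with Pros1 and -0.534 with Stab2. Stab2 and Gas6 followed the first principal component with r = -0.955 and -0.795, and Mertk did so with 0.116. The genes most like each member by r over the 9 libraries were Rnf149, Ctsz and Rufy3 for Mertk (0.971 to 0.981), Tmem106a, Slc15a3 and Prg2 for Lrp1 (0.974 to 0.985), Psmb1, Nedd4 and Il6st for Pros1 (0.997 to 0.998), Fbxo3, Gtf2h5 and Lrrfip1 for Stab2 (0.991 to 0.993), and Ctsl, C1rb and Degs1 for Gas6 (0.984 to 0.989). For Axl they were Ap1s1, Dcaf7 and Socs6 (0.944 to 0.959), for Mfge8 Lhfpl2, Cyb5r1 and Tyrobp (0.932 to 0.989), for Stab1 Rpp40, Tomm6 and Jak1 (0.949 to 0.963) and for Itgav Fgfr1op, Eif2b3 and Carf (0.955 to 0.965). With 16587 genes and 9 libraries, high values of r are common. Ctsz, the lysosomal protease cathepsin Z, went from a mean of 86.5 FPKM in WT to 123 and 119 in the NrasQ61K groups, beside 7.44 ± 2.47, 12.4 ± 3.64 and 11.8 ± 2.82 FPKM (SD, n = 3 each) for Mertk.

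**Figure D4:**
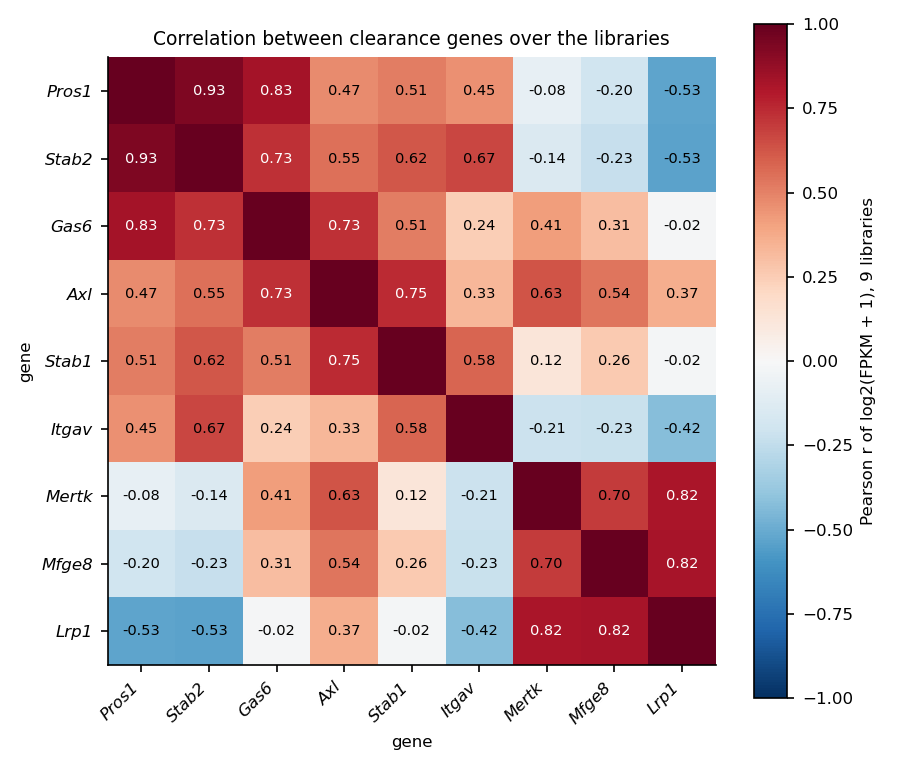
Pearson r of log2(FPKM + 1) between the 9 tested clearance genes over the 9 libraries, as color from -1 (blue) to 1 (red) and as a number in each cell, with genes on both axes. Pros1, Stab2 and Gas6 have high values with each other, as have Mertk, Mfge8 and Lrp1, and Axl has values above 0 with all. Lrp1 lies below 0 with Pros1, Stab2 and Itgav and just below 0 with Gas6 and Stab1 (-0.02 each).

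In the order of mean FPKM, Mfge8 came first in every group, at 149 ± 47.2 in WT, 193 ± 6.15 in Tyr-NrasQ61K and 169 ± 33.0 in MHCII-KO nodes (SD, n = 3 each), with no overlap with the next gene, Axl. Axl and Gas6 followed and overlapped each other in every group. In WT, Stab1, Stab2, Pros1, Lrp1 and Itgav came next and each overlapped its neighbor, then Mertk, and Tyro3 last. In both NrasQ61K groups Lrp1 moved up to follow Gas6, Mertk stood before Stab2, and Pros1 fell to the place before Tyro3, but Mertk, Stab2, Itgav and Pros1, which followed each other, overlapped from each to the next.

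Other genes of apoptotic cell clearance were examined by lists of receptors, bridging factors, signals, engulfment, digestion, lipid handling and receptor shedding. Of 109 such genes, 100 passed the filter, and Trem2, a lipid-sensing receptor of macrophages, was the only gene that passed the test. It was at 17.9, 24.9 and 21.2 FPKM in the MHCII-KO libraries against 2.08, 0.382 and 1.15 in WT (log2 difference 3.41, standard error 0.31, adjusted p = 0.00747 from limma), and the log2 difference of Tyr-NrasQ61K from WT was 3.43 (adjusted p = 0.00491 from limma). No gene on these lists fell past the threshold. The median of the 100 genes was -0.10 for Tyr-NrasQ61K and -0.17 for MHCII-KO against WT, beside -0.12 and -0.22 for all genes tested. At an unadjusted p under 0.05 in limma, 7 were higher and 9 lower in Tyr-NrasQ61K against WT, and 6 and 13 in MHCII-KO against WT, beside 15.2% and 15.0% of all genes in either direction.

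The 20 other uptake receptors that were tested held the widest differences from WT in both directions. Timd4, a receptor of resident macrophages that binds phosphatidylserine directly, was at 98.3, 41.9 and 97.2 FPKM in WT and 10.1, 2.15 and 14.3 FPKM in MHCII-KO libraries. Its log2 difference was -3.20 (standard error 0.69, adjusted p = 0.201 from limma), beside -3.23 (adjusted p = 0.152 from limma) for Tyr-NrasQ61K, in which the libraries also lay wholly below WT. Havcr1, of the same family, was at 2.42 to 5.27 FPKM in WT nodes, 1.35 to 1.79 in those of Tyr-NrasQ61K and 0.661 to 1.28 in those of MHCII-KO (log2 difference of MHCII-KO -1.32, adjusted p = 0.150 from limma). Marco, a scavenger receptor of sinus macrophages, was at 51.8 to 142, 19.6 to 24.2 and 13.9 to 40.0 FPKM in the same order (log2 difference of Tyr-NrasQ61K -2.10, adjusted p = 0.163 from limma). None of these lower values passed the test, alone or with both NrasQ61K groups pooled (adjusted p from 0.0791 to 0.0918 from limma).

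**Figure D5:**
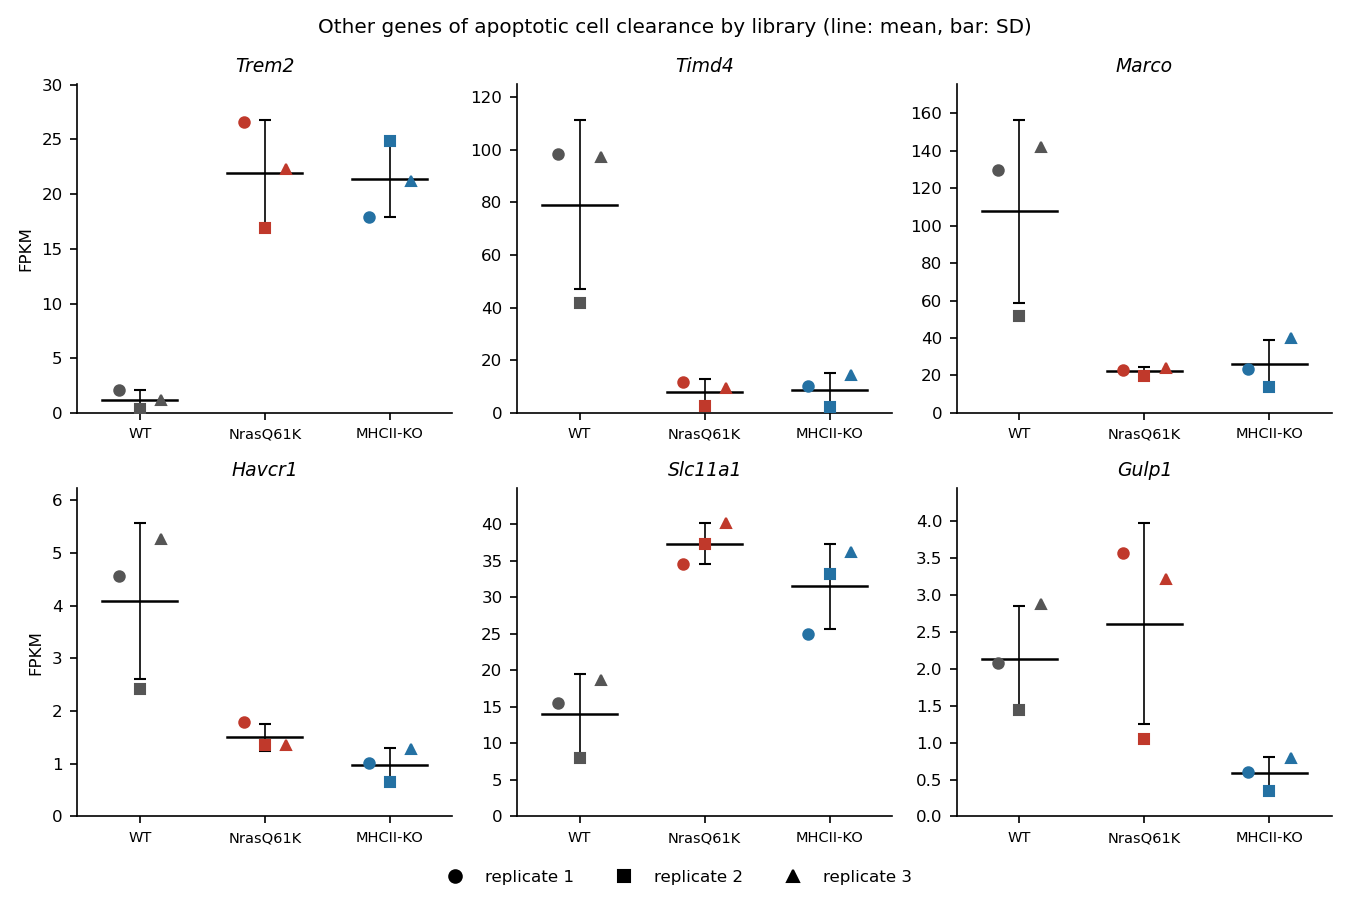
FPKM (vertical axis, linear, from 0) of 6 other genes of apoptotic cell clearance in the WT (grey), Tyr-NrasQ61K (red, axis label NrasQ61K) and MHCII-KO (blue) libraries; shapes give the replicate number, lines the mean and bars the SD. Trem2 and Slc11a1 lie higher and Timd4, Marco and Havcr1 lower in all 6 NrasQ61K than in all 3 WT libraries, of which only Trem2 passed the test, and Gulp1 lies lower in the MHCII-KO libraries. Of the 100 listed genes tested, 9 lay higher and 9 lower in all 6 NrasQ61K libraries, beside 13.0% of all genes tested in either direction.

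Other steps of clearance showed no called gene. Of 16 tested genes of phagosome maturation and digestion, Slc11a1, which moves metal ions out of the phagosome, was at 7.95 to 18.6 FPKM in WT nodes, 34.6 to 40.2 in those of Tyr-NrasQ61K and 25.0 to 36.3 in those of MHCII-KO (log2 difference 1.42 and 1.17, adjusted p = 0.160 and 0.280 from limma). Of 18 engulfment genes, Gulp1, an adaptor of Lrp1 and the stabilins, was at 1.45 to 2.88 FPKM in WT and 1.06 to 3.57 in Tyr-NrasQ61K but at 0.350 to 0.793 in MHCII-KO libraries, and its log2 difference between the NrasQ61K groups was -1.12 (standard error 0.33, adjusted p = 0.99994 from limma). Scarf1 (0.28), Cd14 (0.23) and Ager (-0.61), receptors for dying cells or their debris, were, with Gulp1, the listed genes of smallest p in each direction between these groups (adjusted p = 0.99994 from limma for each). The 11 other bridging factors and surface signals, 12 find-me and do-not-eat-me signals, 13 genes of lipid sensing and efflux and 10 genes of receptor shedding and TAM signaling had 0 calls in each comparison (limma with Benjamini-Hochberg), and at an unadjusted p under 0.05 there were 0, 4, 1 and 2 of them in Tyr-NrasQ61K against WT and 1, 4, 0 and 2 in MHCII-KO against WT, beside the same 15.2% and 15.0% of all genes.

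Markers of cell types in which these genes are known were summed as well. Of 9 macrophage markers, 7 were tested and 0 passed in limma, with 3 and 2 lower at an unadjusted p under 0.05 in Tyr-NrasQ61K and MHCII-KO against WT, beside 1398 and 1900 of the 16587 genes tested, and the 9 summed to 75.9 to 189 FPKM in WT nodes, 66.1 to 162 in those of Tyr-NrasQ61K and 78.9 to 189 in those of MHCII-KO. Of the 7, 3 had a log2 difference above 0 in each comparison with WT, beside 40.9% and 32.5% of all genes tested. Their median was -0.88 for Tyr-NrasQ61K and -0.71 for MHCII-KO. Within that list Csf1r and Mrc1 had log2 differences of -0.88 and -1.62 in Tyr-NrasQ61K against WT (adjusted p = 0.317 and 0.275 from limma) and Cd68 one of 0.42 (adjusted p = 0.753 from limma). Siglec1 was listed at 37.3 FPKM in WT replicate 1 but at 0 in WT replicates 2 and 3, and Vsig4 at 0.193 FPKM or less in every library. Cd5l was at 68.5 FPKM in MHCII-KO replicate 3, where the sum was 189. The sums thus depend on single genes in single libraries and do not show whether macrophage content was alike. The 6 adipocyte markers summed to 216 to 372 FPKM in WT nodes, 28.2 to 154 in those of Tyr-NrasQ61K and 46.0 to 125 in those of MHCII-KO, and Plin1 and Lep fell with both NrasQ61K groups pooled (log2 difference -1.95 and -2.80, adjusted p = 0.0445 and 0.0282 from limma). The 7 dendritic cell markers summed to 59.0 to 83.1, 38.0 to 65.2 and 41.8 to 55.3 FPKM. Ccr7 was the highest of them, with a mean of 32.9 of 73.9 FPKM in WT nodes. Of the 7, 1 had a log2 difference above 0 in each comparison with WT and 0 passed in limma. The part of these cell types in the levels of the clearance genes was not tested.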

How the data were processed

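RNA from mouse lymph nodes was sequenced on an Illumina Genome Analyzer IIx in 9 libraries, 3 in each of 3 groups, which were assigned from the sample labels. The deposited values are FPKM per gene that the authors made with TopHat and Cufflinks (per the labels, genome build mm10), without read counts, so the depth of each library is unknown and no counting interval was given. The sources used here name neither tool versions nor the gene annotation. The labels also name Cuffdiff, of which no comparison was used. Of 37819 table entries, 18 with several values per library were left out. FPKM depends on all other genes of a library, so a few abundant genes can shift the rest.

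Genes with FPKM of at least 1 in at least 3 libraries (16587) were tested on log2(FPKM + 1) with limma 3.58.1 in R 4.3.3 (group means over all 9 libraries, trend, Benjamini-Hochberg, adjusted p of at most 0.05, no block), which understates changes of low genes. The procedure was tested on simulated data with independent normal errors and the same spread in every library. That test does not cover libraries that stand apart, as some did here. Python 3.11.15, numpy 2.4.6, pandas 2.3.3 and matplotlib 3.10.9 were used for the rest. The 16 alternatives were another pseudocount (0.1), no filter, quantile normalization, median-ratio scaling, weights for the libraries, a replicate block, leaving out both replicates that stood apart on the first principal component, and leaving out each library. The clearance genes, the lists and the markers were chosen with earlier results of these data known. Named genes were the 10 clearance genes, listed genes that passed the test, the 2 higher and 2 lower listed genes of smallest p in each comparison, and the 3 genes of highest r with each clearance gene, predicted and clone-named genes left out. Gene positions came from GENCODE M21.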

Additional observations from a re-analysis of the deposited data

How the results depend on the processing

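Depth cannot be read from FPKM, and 3 libraries per group left intervals of the log2 differences over 0.8 wide. The number of genes that passed in Tyr-NrasQ61K against WT, 39, was 24 with a pseudocount of 0.1, 69 with median-ratio scaling, 5076 with weights for the libraries and 11 to 36 with 1 library left out, and that in MHCII-KO against WT, 24, was 7407 with weights and 9 to 29 with 1 left out. Between the NrasQ61K groups, 8 became 24 with weights and 14 without Tyr-NrasQ61K replicate 2 and MHCII-KO replicate 2, and for both against WT, 66 became 173 with quantile normalization, 165 with median-ratio scaling, 7542 with weights and 26 to 98 with 1 library left out. The split of higher to lower genes moved from 27 and 12 to 26 and 21 in Tyr-NrasQ61K against WT, and from 34 and 32 to 71 and 102 for both, with quantile normalization. With the replicate block the counts were 894, 777, 7 and 2675 in the same order, and Pros1 passed (adjusted p = 0.0387, 0.0419 and 0.0200 from limma in the 3 comparisons with WT), as did Stab2 for both against WT (0.0453). Deviations of same-numbered libraries correlated from -0.0384 to 0.332, and those of differently numbered libraries from -0.27 to 0.162. The labels do not say whether equal numbers mark anything shared, and a pairing was not tested. Lrp1, Mertk, Pros1 and Stab2 kept their direction against WT under all 16 alternatives. The following log2 differences changed sign. With weights these were Axl (-0.20) and Itgav (-0.12) in Tyr-NrasQ61K against WT, Mfge8 in MHCII-KO against WT (-0.018), Axl (0.23), Pros1 (-0.0043), Stab1 (0.17) and Stab2 (0.21) between the NrasQ61K groups and Axl for both (-0.088). Without both replicates 2 they were Gas6 (0.012) and Stab1 (0.078) in Tyr-NrasQ61K against WT and Pros1 between the NrasQ61K groups (-0.11). With quantile normalization they were Stab1 in Tyr-NrasQ61K (0.059) and Gas6 in MHCII-KO (0.043) against WT and Mertk (0.10), Axl (0.093), Gas6 (0.18), Stab2 (0.053) and Lrp1 (0.16) between the NrasQ61K groups. With median-ratio scaling they were Stab1 in Tyr-NrasQ61K (0.13) and Gas6 in MHCII-KO (0.0095) against WT, Mertk (0.037), Gas6 (0.086) and Lrp1 (0.061) between the NrasQ61K groups and Stab1 for both (0.012). With 1 library left out, Tyr-NrasQ61K against WT gave -0.15 to 0.29 for Axl, -0.55 to 0.012 for Gas6, -0.39 to 0.32 for Stab1 and -0.16 to 0.13 for Itgav, and MHCII-KO against WT gave -0.25 to 0.19 for Axl and -0.076 to 0.38 for Mfge8. Between the NrasQ61K groups it gave -0.26 to 0.14 for Mertk, -0.26 to 0.10 for Axl, -0.26 to 0.14 for Gas6, -0.41 to 0.37 for Pros1, -0.59 to 0.028 for Stab1, -0.40 to 0.26 for Stab2 and -0.17 to 0.18 for Lrp1, and for both against WT -0.20 to 0.24 for Axl and -0.46 to 0.15 for Stab1. The causes were not tested.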
